A study of Mus musculus with 6 samples.

Results

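The germline and pluripotency genes examined here are genes of germ cells, meiosis and the early embryo that somatic tissues keep silent. The list named 41 genes, and every probe set annotated to only 1 of them was used with no filter on dim signal. A probe set is a group of short probes read as 1 signal. This gave 51 probe sets for 40 genes, of 45037 probe sets and 18193 named genes on the array, since Tuba3a had only the 2 probe sets it shares with Tuba3b, which were left out. Signals came from whole hearts of 8-week-old mice, with 1 Affymetrix array per mouse. The DNMTs-Tg group (3 mice, replicates 1, 5 and 6) expresses DNMT3A2 and DNMT3L together in many somatic tissues. DNMT3A2 lacks the first part of DNMT3A, an enzyme that methylates unmarked DNA, and DNMT3L is a partner without catalytic activity that stimulates it. These mice came from females of the line FVB-Tg(Ddx4-cre)1Dcas/J, in which the promoter of the germ cell gene Ddx4, itself on the list, drives Cre recombinase, crossed with floxed males. The wild-type group (3 mice, replicates 1, 4 and 6) has the same age, while the labels leave its strain and Cre status unstated. Nothing in the labels ties same-numbered mice together, and p-values measure the spread between these 6 hearts. The study sought genes that lose heart expression when both proteins are present, and DNA methylation was not analysed here.

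The genotypes matched the transgene signal, since the Dnmt3l probe set lay at 12.19 to 12.38 (log2) on the DNMTs-Tg arrays and at 5.17 to 5.48 on the wild-type arrays. The 5 Dnmt3a probe sets did not move together. The one with the smallest p had a DNMTs-Tg mean of 9.68 ± 0.23 (SD, n = 3) against a wild-type mean of 8.66 ± 0.40 (limma, adjusted p = 0.0563), and the other 4 differed by -0.28, -0.11, -0.09 and -0.28. The sex labels did not match the data. They call 5 mice female and wild-type replicate 6 male, but the brighter probe set of the Y-linked gene Eif2s3y lay at 9.41 to 9.52 on every array except that of wild-type replicate 4, where it was 3.32, and the brightest of Xist reached 10.10 there against 4.52 to 4.96 elsewhere. Results were therefore also computed without wild-type replicate 4. In that comparison 0 of the 51 probe sets passed the threshold, as with all arrays, and the median difference was the same to the second decimal (-0.14). All 14 probe sets of 8 cardiomyocyte genes lay above the 40th percentile of every array. So did all 10 endothelial probe sets and 55% of all probe sets, so this level alone does not identify the tissue.

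Germline genes of this kind are shut off in the embryo when their promoters gain DNA methylation, and they stay methylated in somatic cells. Some of them carry CpG-rich promoters that repressor complexes with E2F6, MGA and MAX recognise, through an E2F-like site and the E-box CACGTG. The pluripotency genes on the list act in the inner cell mass and germ line and are silenced as cells differentiate. In an adult heart most of these transcripts are thus normally absent.

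Promoter sequences were available from RefSeq (GRCm38.p6) for 33 of the 41 listed genes, as 41 entries reaching from 250 bases before to 50 bases after an annotated start. The 3 promoters below belong to the genes with the smallest p in the genotype comparison, none of which passed the threshold. They are printed to show CpG density, and their methylation was not analysed. Capitals mark every CpG.
Mael promoter, chr1:166238695-166238994, minus strand: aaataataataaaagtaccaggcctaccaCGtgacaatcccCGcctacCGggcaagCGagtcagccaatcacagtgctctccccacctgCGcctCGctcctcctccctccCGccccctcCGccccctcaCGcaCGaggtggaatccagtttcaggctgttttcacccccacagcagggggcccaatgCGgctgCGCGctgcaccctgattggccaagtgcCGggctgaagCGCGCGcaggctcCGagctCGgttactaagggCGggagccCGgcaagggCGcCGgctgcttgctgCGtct
Tuba3b promoter, chr6:145615713-145616012, plus strand: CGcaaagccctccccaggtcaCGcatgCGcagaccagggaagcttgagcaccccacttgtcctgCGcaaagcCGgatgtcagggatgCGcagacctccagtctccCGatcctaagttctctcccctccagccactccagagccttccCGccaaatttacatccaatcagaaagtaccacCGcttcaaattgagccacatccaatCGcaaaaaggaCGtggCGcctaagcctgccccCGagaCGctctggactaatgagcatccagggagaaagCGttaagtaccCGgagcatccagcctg
Dazl promoter, chr17:50293571-50293870, minus strand: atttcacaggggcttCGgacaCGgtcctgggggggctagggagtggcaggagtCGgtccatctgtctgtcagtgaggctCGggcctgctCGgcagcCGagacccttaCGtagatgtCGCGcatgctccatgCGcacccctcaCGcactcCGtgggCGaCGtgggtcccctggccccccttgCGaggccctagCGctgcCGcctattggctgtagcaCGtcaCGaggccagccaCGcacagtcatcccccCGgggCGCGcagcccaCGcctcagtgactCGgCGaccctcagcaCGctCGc

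The Mael promoter held 24 CpGs in 300 bases, the Tuba3b promoter 16 and the Dazl promoter 28, against a median of 7 over all 32851 RefSeq promoters of the same length. Over the 41 promoters of the listed genes the median was 17. The ratio of observed to expected CpG (CpG count times length, divided by the product of the C and G counts) was at least 0.6 in 24 of these 41 entries (58.5%), compared with 35.8% of all promoters. All 24 belonged to the germline lists, which had 35 entries with a median of 19 CpGs. Ddx4 had the most, with 38. None of the 6 entries of Nanog, Pou5f1, Rhox5 and Zfp42 reached that ratio, and they held 4 to 11 CpGs.

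**Figure D1:**
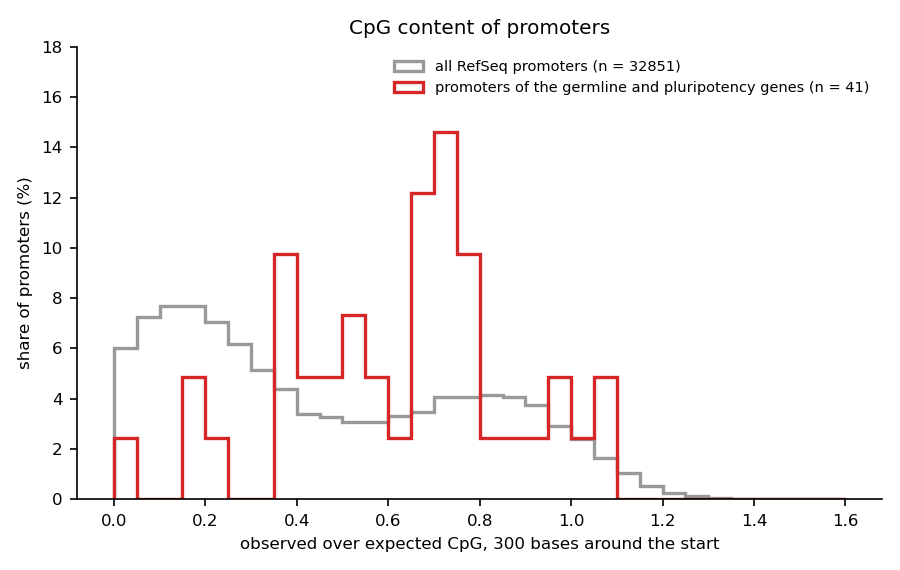
Ratio of observed to expected CpG (x axis) in the 300 bases around annotated starts, as a share of promoters (y axis, %), for the 41 promoters of the germline and pluripotency genes (red) and all 32851 RefSeq promoters (grey). The listed genes gather at ratios of 0.6 and above (24 of 41), where 35.8% of all promoters lie.

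A search of both strands for the E-box CACGTG, which reads the same on both, and for the E2F-like hexamer TCCCGC showed a further feature. CACGTG was present in 17 of the 41 promoters (41.5%, 14 genes) and in 7.15% of all promoters. TCCCGC was present in 16 of the 41 (39.0%, 14 genes) and in 20.0% of all. Both motifs contain a CpG, so CpG-rich promoters are the closer reference. Among promoters with a ratio of at least 0.6, CACGTG was in 15 of the 24 from listed genes (62.5%) and in 11.3% of all 11765 such promoters, while TCCCGC was in 54.2% and 43.1%. Mael, Ddx4, Hormad1, Stag3, Sycp1, Sycp3 and Syce2 had a promoter with both. Some entries of 1 gene overlap, such as the pair of Hormad1, so that entries are not independent, and a match is a string of letters, not a bound site.

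On the arrays most of these genes gave dim signals in both genotypes. Of the 51 probe sets, 38 (74.5%) were dim on all 6 arrays, meaning that the signal did not exceed the array's own 40th percentile, compared with 34.7% of all probe sets. That percentile corresponded to log2 signals of 4.64 to 4.72. The 38 represented 29 genes, among them Dazl, Ddx4, Mael, Sycp1, Sycp2, Hormad1, Stag3, Spo11, Dmc1, Tex11, Tex15, Piwil2, Piwil4, Nanog, Pou5f1, Dppa3, Dppa4 and Zfp42. Another 7 crossed the percentile on some arrays, for Asz1, Piwil1, Smc1b, Syce2, Sycp3, Tex14 and Tuba3b. On all 6 arrays 6 lay above it, those of Mov10l1, Rhox5, Tdrd9, Sohlh2 and Dppa5a and 1 of the 3 of Brdt. Whether a dim probe set reported its own RNA or background is unknown, as the values carry no detection call, and no ratio is given for one.

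**Figure D2:**
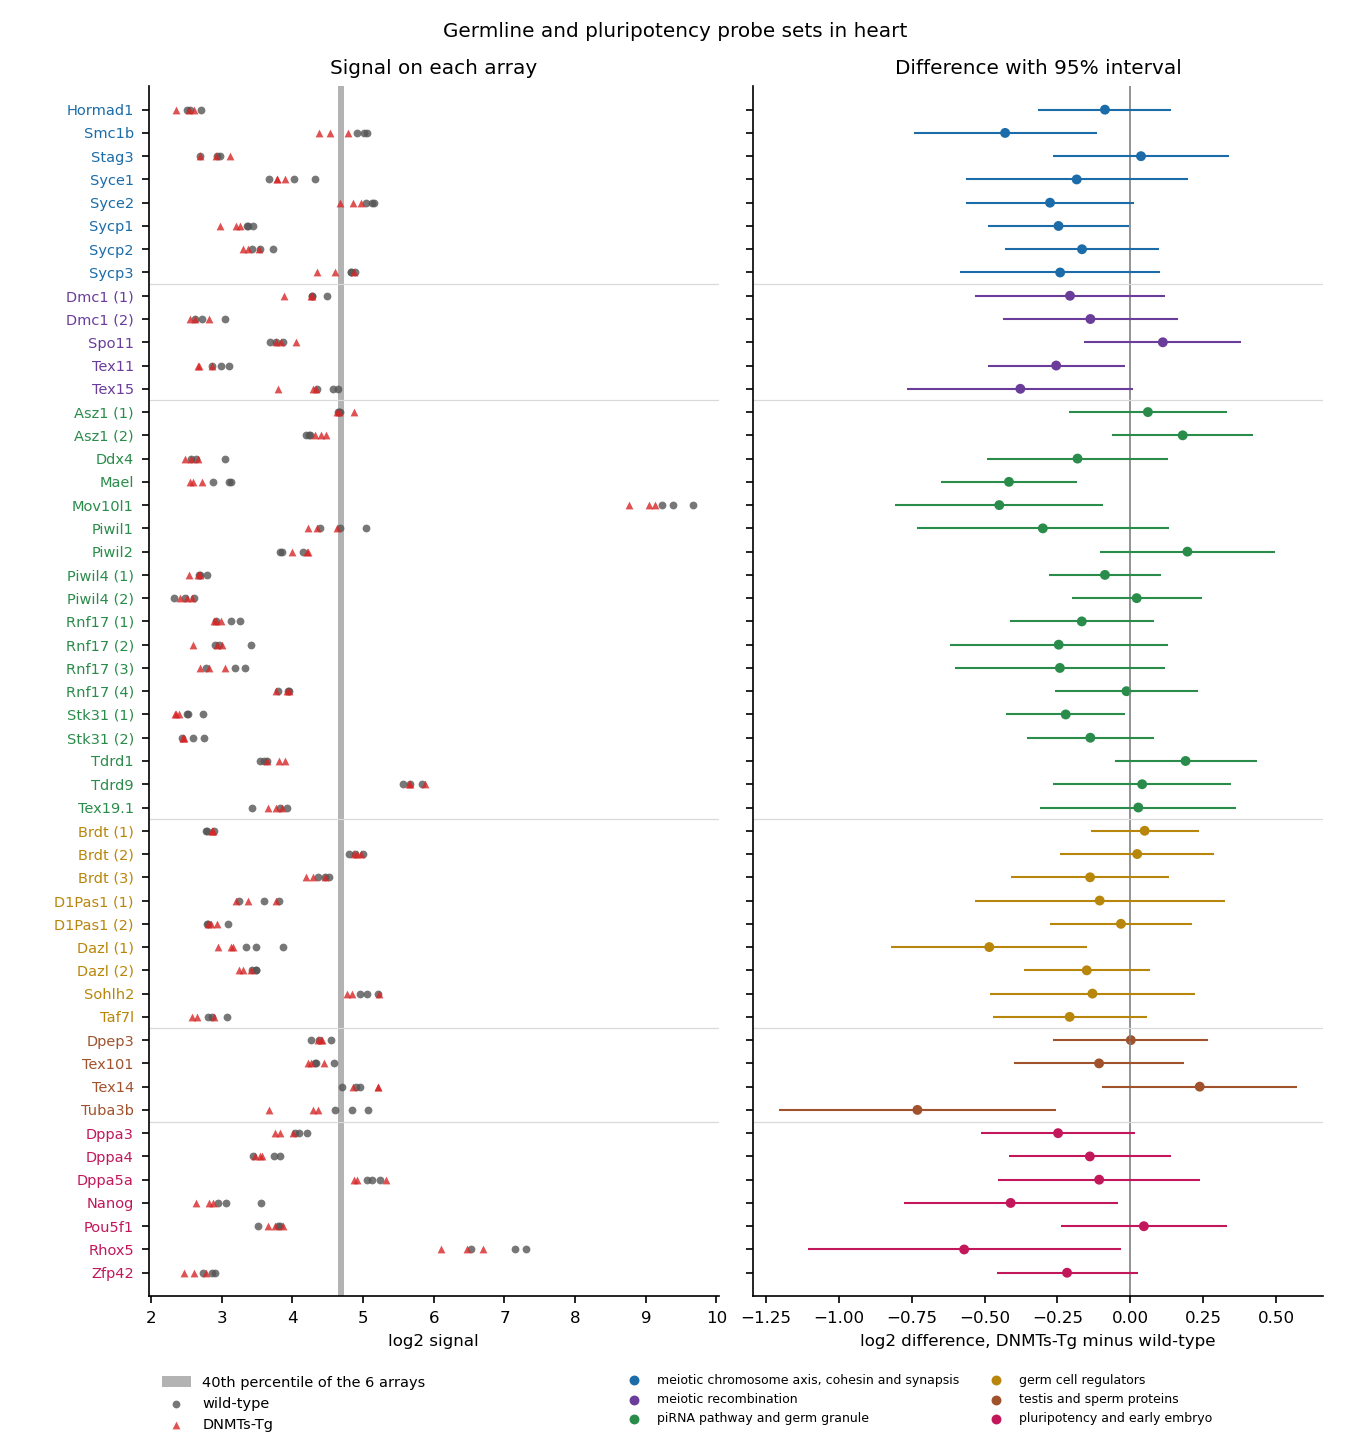
Left, log2 signal (x axis) of each of the 51 probe sets (rows, coloured by role; numbers in brackets tell apart the probe sets of 1 gene) on 3 wild-type (grey circles) and 3 DNMTs-Tg arrays (red triangles), with the 40th percentile of the 6 arrays as a grey band. Right, the log2 difference, DNMTs-Tg minus wild-type, with limma's 95% interval. Signals of different probe sets are not comparable with each other. Mov10l1 lies far to the right of the band, and most rows lie left of it.

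No probe set of these genes passed the threshold in either direction (limma, 0 of 51 lower and 0 of 51 higher at adjusted p under 0.05), whereas 1.31% of all probe sets passed as lower and 0.799% as higher. Among all probe sets that were dim on every array, 0.32% passed as lower. At an unadjusted p under 0.05, 10 of the 51 (19.6%) were lower in DNMTs-Tg hearts and 0 were higher, against 10.6% and 8.58% of all probe sets. Under quantile normalization the counts were 6 lower and 1 higher of 51, with 10% of all probe sets lower, so the excess depended on the scaling. Of the 38 dim on all arrays 6 were lower at that level (15.8%), against 8.39% of all dim probe sets. The smallest adjusted p was 0.0839, for Mael. Standard errors of the 51 differences ran from 0.081 to 0.23 on the log2 scale.

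The differences leaned to the lower side. They were below 0 for 37 of 51 probe sets (72.5%), where 54.5% of all probe sets and 64.7% of all dim probe sets were below 0. The median difference was -0.14, compared with -0.02 over all probe sets and -0.06 over all dim ones. In 13 of the 51 (25.5%) each DNMTs-Tg array lay below each wild-type array, a pattern shown by 14.9% of all probe sets. For the dim ones it was 9 of 38 against 12.7%. The opposite pattern was seen in 1 of the 51, against 11.7% of all probe sets. Under quantile normalization the median over all probe sets was -0.01 and that of all dim ones 0.00, while the median of the 51 was -0.10 with 35 below 0. A whole heart mixes cell types, so fewer cells of a type and less RNA per cell cannot be told apart.

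**Figure D3:**
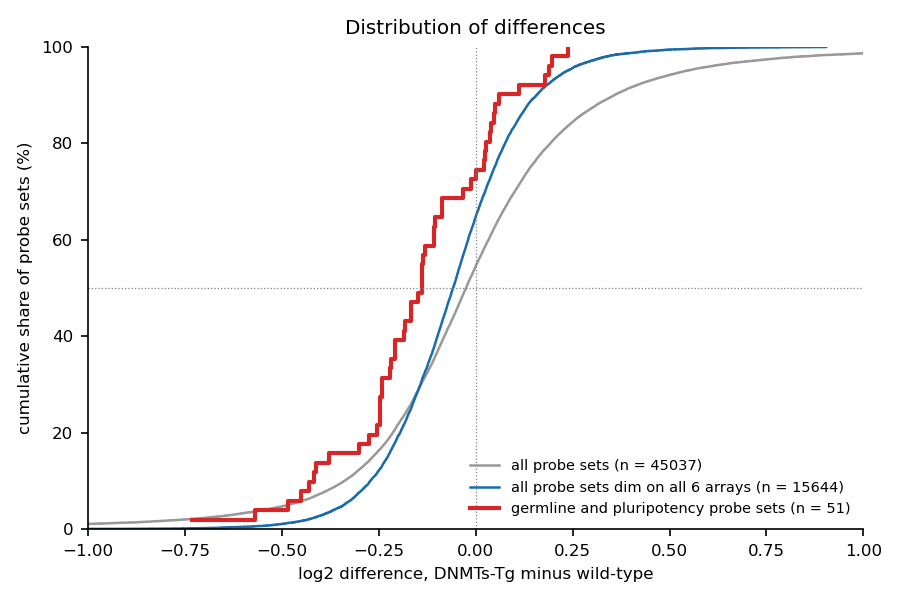
Cumulative share of probe sets (y axis, %) by log2 difference, DNMTs-Tg minus wild-type (x axis), for the 51 germline and pluripotency probe sets (red), all 15644 probe sets dim on all 6 arrays (blue) and all 45037 probe sets (grey). The red line crosses 50% at -0.14, the blue at -0.06 and the grey at -0.02.

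The lean was present on each DNMTs-Tg array. Relative to the wild-type mean of each probe set, the median shift of the 51 was -0.20, -0.13 and -0.10 on the arrays of DNMTs-Tg replicates 1, 5 and 6. It was -0.01, -0.02 and 0.02 on those of wild-type replicates 1, 4 and 6, which centre near 0 because their own mean is the reference. All dim probe sets shifted by -0.12, -0.03 and -0.03 on the 3 DNMTs-Tg arrays, with replicate 1 again the lowest. Without that array the median of the 51 was -0.12, with 37 still below 0. RNA integrity, read from Gapdh control probe sets as their 3' minus 5' signal, also differed in value between the genotypes. It was 0.75, 0.53 and 0.71 on the DNMTs-Tg arrays and 0.50, 0.40 and 0.40 on the wild-type arrays, where a higher value means fewer full-length transcripts. Its part in the shift was not tested.

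**Figure D4:**
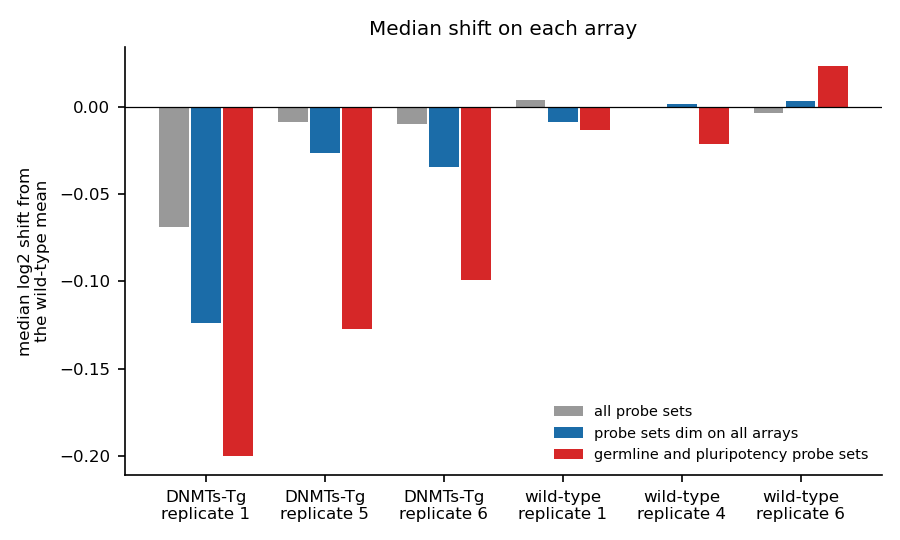
Median log2 shift from the wild-type mean (y axis) on each of the 6 arrays (x axis), for all probe sets (grey), those dim on all arrays (blue) and the 51 germline and pluripotency probe sets (red). The red bars are at -0.20, -0.13 and -0.10 on the DNMTs-Tg arrays and between -0.02 and 0.02 on the wild-type arrays, whose own mean is the reference.

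Meiotic chromosome structure was represented by 8 genes with 1 probe set each, and 7 of the 8 differences were below 0 (median -0.21). Smc1b, the meiosis-specific cohesin subunit SMC1-beta, had log2 signals of 4.38, 4.78 and 4.53 in DNMTs-Tg replicates 1, 5 and 6 and of 4.91, 5.05 and 5.01 in wild-type replicates 1, 4 and 6 (the same order is kept below). The groups did not overlap, although the DNMTs-Tg arrays straddled the 40th percentile. The difference was -0.43 ± 0.14 (SE, adjusted p = 0.148). Sycp1, the transverse filament of the synaptonemal complex, gave 3.26, 3.20 and 2.97 against 3.37, 3.36 and 3.44, again without overlap and with every value dim (-0.25 ± 0.11, adjusted p = 0.253). Without DNMTs-Tg replicate 6 the difference was -0.16. Syce2, a central element protein, had a probe set with groups that did not overlap (4.85, 4.67 and 4.97 against 5.13, 5.16 and 5.04; -0.28 ± 0.13, adjusted p = 0.279). It is singled out because it was the 1 probe set of the 51 that passed when arrays were weighted by quality (-0.39 ± 0.11, adjusted p = 0.0470). In that fit 5472 probe sets passed in all. Its weights were 0.31, 3.12 and 0.56 for DNMTs-Tg replicates 1, 5 and 6. The DNMTs-Tg mean thus rested mostly on replicate 5, which had the lowest Syce2 signal. With 1 array left out the adjusted p of Syce2 ran from 0.177 to 0.510.

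The other members of this group overlapped between genotypes. The axis proteins Sycp3 and Sycp2 differed by -0.24 and -0.17, the central element gene Syce1 by -0.18 and the axis gene Hormad1 by -0.09. Stag3, a second meiotic cohesin subunit, differed by 0.04. Single arrays moved these values, that of Syce1 to -0.03 without wild-type replicate 1 and to -0.35 without wild-type replicate 6, and that of Sycp3 to -0.11 without DNMTs-Tg replicate 5 and to -0.37 without DNMTs-Tg replicate 6. Their 95% intervals all included 0, and that of Stag3 ran from -0.27 to 0.34.

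Among the 4 genes of meiotic recombination, all 5 probe sets were dim on every array. Tex11, an X-linked gene of crossover formation, had 2.66, 2.86 and 2.67 in DNMTs-Tg and 2.86, 2.99 and 3.11 in wild-type hearts. The values of DNMTs-Tg replicate 5 and wild-type replicate 1 nearly met. The difference was -0.25 ± 0.10 (adjusted p = 0.227) and stayed at -0.25 without wild-type replicate 4. Tex15, which acts in double-strand break repair and in piRNA-guided silencing, differed by -0.38 ± 0.17 (adjusted p = 0.272), and its groups also did not overlap. Without DNMTs-Tg replicate 1 it was -0.21. The pair for the meiotic recombinase Dmc1 differed by -0.21 and -0.14, the first by -0.08 without DNMTs-Tg replicate 1 and by -0.13 without wild-type replicate 4. Spo11, which encodes the enzyme that makes the breaks, differed by 0.11 with an interval of -0.16 to 0.38.

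The piRNA pathway, which produces small RNAs that silence transposons in germ cells, had 12 genes and 18 probe sets, of which 14 were dim on all arrays and 11 had a difference below 0 (median -0.11). Mov10l1, the RNA helicase that starts piRNA processing, was the exception in level. RefSeq also lists it as CHAMP, a name given to its heart form. Its signals were 8.76, 9.05 and 9.13 in DNMTs-Tg and 9.66, 9.38 and 9.23 in wild-type hearts, between the 85.0th and the 91.6th percentile of their arrays. The groups did not overlap, and the highest DNMTs-Tg and the lowest wild-type value lay close together. The difference was -0.45 ± 0.16 (adjusted p = 0.174), a signal ratio of 0.732, with a 95% interval of -0.81 to -0.09. Which transcript of Mov10l1 the probe set detects is not known here.

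Mael, whose protein maelstrom is needed for transposon silencing, had the smallest p of the list. Its signals were 2.55, 2.72 and 2.59 against 2.88, 3.10 and 3.13, all under the 10th percentile of their arrays. The groups were separate, and the difference was -0.42 ± 0.10 (adjusted p = 0.0839). Over the 12 alternatives in which it was tested the adjusted p ranged from 0.0569 to 0.424, and the difference stayed below 0. Stk31, a germ cell Tudor-domain kinase, had 2.40, 2.35 and 2.34 against 2.73, 2.52 and 2.50 on its first probe set, which carries a suffix for probes shared with other transcripts (-0.22 ± 0.09, adjusted p = 0.227). Its second differed by -0.14.

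Tdrd9, a Tudor-domain helicase, was the other gene of this pathway above the 40th percentile on every array. Its signals of 5.66, 5.88 and 5.65 against 5.83, 5.67 and 5.57 overlapped (0.04 ± 0.13, interval -0.27 to 0.35, adjusted p = 0.898). The 4 probe sets of Rnf17 differed by -0.25 to -0.01 and those of Piwil4 by -0.09 and 0.02. Piwil1, a PIWI protein of spermatids, differed by -0.30 ± 0.19, by -0.13 without wild-type replicate 4 and by -0.46 without wild-type replicate 1. Ddx4, the RNA helicase that marks germ cells, was at 2.67, 2.48 and 2.56 against 2.64, 2.57 and 3.05 (-0.18 ± 0.13), and the groups overlapped. Without wild-type replicate 6 its difference was -0.03, and without wild-type replicate 4 -0.27. Differences above 0 were measured for Tdrd1 (0.19), Piwil2 (0.20), Tex19.1 (0.03) and both probe sets of Asz1 (0.06 and 0.18). Asz1 is singled out because its dim second probe set was the 1 of the 51 with all DNMTs-Tg arrays above all wild-type arrays (4.40, 4.32 and 4.48 against 4.24, 4.19 and 4.23; adjusted p = 0.392).

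**Figure D5:**
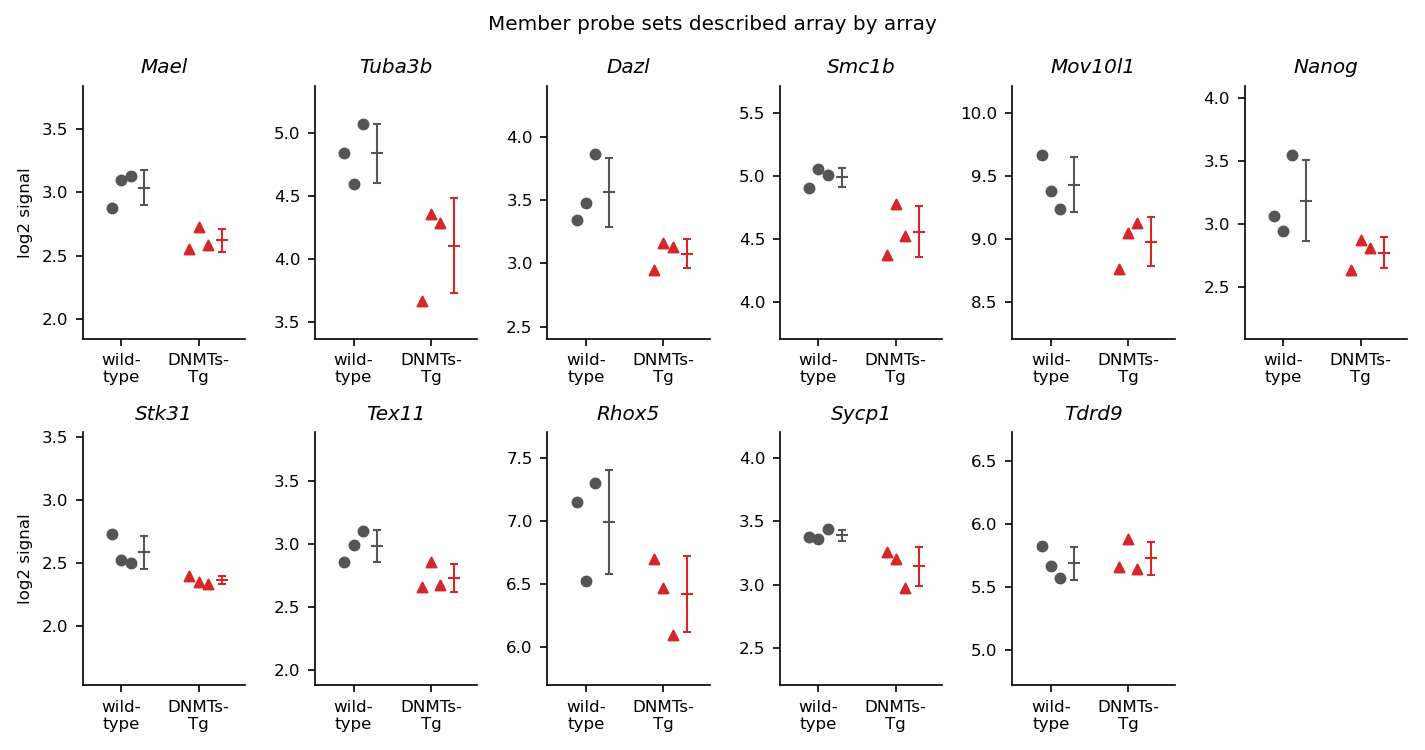
Log2 signal (y axis, each panel spanning the same range of log2 units) of the 10 probe sets with the smallest p and of Tdrd9, with wild-type as grey circles, DNMTs-Tg as red triangles, and the mean and SD (n = 3) beside them. DNMTs-Tg lies below wild-type without overlap in every panel except Rhox5 and Tdrd9. The 10 were chosen by p on these same arrays, and this pattern was shown by 14.9% of all probe sets.

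Regulators of germ cell genes gave 9 probe sets for 5 genes. Dazl, an RNA-binding protein of germ cells whose promoter is printed above, had 2.94, 3.16 and 3.13 in DNMTs-Tg and 3.34, 3.48 and 3.87 in wild-type hearts on its first probe set. No wild-type value reached the 24th percentile of its array, and the groups did not overlap. The difference was -0.48 ± 0.15 (adjusted p = 0.134), and the second Dazl probe set differed by -0.15 ± 0.09 (adjusted p = 0.423), also without overlap. Taf7l, an X-linked germ cell form of a basal transcription factor subunit, differed by -0.21 ± 0.11, and by -0.13 without wild-type replicate 4. The testis bromodomain gene Brdt differed by -0.14, 0.02 and 0.05, and the helicase gene D1Pas1 by -0.11 and -0.03. Sohlh2, a transcription factor of early germ cells, lay above the 40th percentile throughout and differed by -0.13 ± 0.15.

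Of the testis and sperm proteins, Tuba3b, a testis alpha-tubulin, showed the largest difference of the 51. Its own probe set had 3.67, 4.36 and 4.29 against 4.84, 4.60 and 5.07. The DNMTs-Tg values were all dim, and the wild-type values crossed the percentile only in part. The difference was -0.73 ± 0.21 (adjusted p = 0.117; 0.0507 to 0.306 over 12 alternatives). Tex14, a component of the bridges between germ cells, differed by 0.24 ± 0.15, the sperm surface gene Tex101 by -0.11 and the dipeptidase gene Dpep3 by 0.00.

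The 7 pluripotency and early embryo genes had 1 probe set each, and 6 of the 7 differences were below 0 (median -0.22). Rhox5, an X-linked homeobox gene, lay between the 60.6th and the 73.2nd percentile, at 6.69, 6.47 and 6.10 in DNMTs-Tg and 7.15, 6.53 and 7.30 in wild-type hearts. The groups overlapped, because wild-type replicate 4, the array with Xist signal, lay under DNMTs-Tg replicate 1. The difference was -0.57 ± 0.23 (adjusted p = 0.235), a signal ratio of 0.673. Without wild-type replicate 4 it was -0.80 ± 0.20 (adjusted p = 0.190, and 0.0872 to 0.498 over 13 alternatives). Other single arrays moved the Rhox5 difference too. It was -0.71, -0.59 and -0.41 without DNMTs-Tg replicates 1, 5 and 6, and -0.49 and -0.42 without wild-type replicates 1 and 6. Nanog, a core pluripotency factor, had 2.64, 2.87 and 2.81 against 3.06, 2.94 and 3.55, dim everywhere, and the groups did not overlap (-0.41 ± 0.16, adjusted p = 0.217). Without wild-type replicate 6, the highest array, the difference was -0.23. Differences were -0.25 for Dppa3, which protects the zygote's DNA methylation, with groups that did not overlap, and -0.22 for Zfp42, -0.14 for Dppa4 and -0.11 for Dppa5a. Pou5f1, the gene of OCT4, differed by 0.05 with an interval of -0.24 to 0.33.

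Several probe sets measured 8 of the 40 genes. They pointed the same way for Asz1, D1Pas1, Dazl, Dmc1, Rnf17 and Stk31 and differed in sign for Brdt and Piwil4. Promoter CpG count and the mean difference of a gene had a Spearman rho of -0.05 over the 32 genes with both, across genes of the same arrays.

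The genes related to the list mostly missed the threshold too. The germline and spermatid lists leaned less to the lower side in their medians, while the other pluripotency genes also leaned lower. Of 37 probe sets for 30 other germline and meiosis genes 0 passed (median difference -0.01, 20 of 37 below 0, with 1 lower and 0 higher at unadjusted p under 0.05). The smallest p belonged to Slc25a31, a germ cell ADP/ATP carrier (2.30, 2.45 and 2.66 against 3.34, 2.77 and 3.12; adjusted p = 0.0952). For 17 other pluripotency genes 0 of 30 probe sets passed, with Fgf4 first (-0.37, adjusted p = 0.20). Their median was -0.10, with 23 of 30 below 0, and 2 were lower and 0 higher at unadjusted p under 0.05. Among 24 probe sets of 12 late spermatid genes 1 fell, the dim Tnp1 of sperm chromatin (2.68, 2.79 and 2.60 against 3.20, 3.13 and 3.12; -0.46 ± 0.09, adjusted p = 0.0437). That probe set carries a suffix for probes shared with other transcripts. Of all probe sets, 1.31% passed as lower. The median of the spermatid list was -0.02, with 16 of 24 below 0. The repressors of germline genes had 0 of 38 probe sets past the threshold and a median of -0.01, with 4 lower and 4 higher at unadjusted p under 0.05. E2f6 came closest, at 6.92 ± 0.07 (SD, n = 3) against 6.38 ± 0.09 (SD, n = 3) on its leading probe set, and the difference of 0.55 missed the threshold (adjusted p = 0.0622).

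Genes typical of tissues other than the heart served as a further reference, with 15 of 40 probe sets dim on all arrays. Of the 40, 2 fell, Krt10 (-1.14, adjusted p = 0.00681) and Gh (-0.68, adjusted p = 0.0389), beside 1.31% of all probe sets. The Gh probe set carries a suffix for probes shared with other transcripts. The median was -0.07, and 29 of 40 differences were below 0, beside 37 of 51 for the germline and pluripotency probe sets. At unadjusted p under 0.05, 6 were lower and 0 higher. Mean shifts were -0.30, -0.17 and -0.13 on the DNMTs-Tg arrays and -0.14, 0.23 and -0.09 on the wild-type arrays. A lean to the lower side was thus also present in this reference list. Macrophage and fibroblast markers stood highest on the array of DNMTs-Tg replicate 1, which also had the lowest median shift of the germline and pluripotency probe sets. The mean shift of 16 macrophage probe sets was 1.26, 0.17 and 0.27 on the DNMTs-Tg arrays, and that of 17 fibroblast probe sets 1.00, 0.26 and 0.15, against -0.16 to 0.28 on the wild-type arrays for both lists. The one marker called among these lists was the macrophage receptor Ccr2 (1.27, adjusted p = 0.00752). In 14 cardiomyocyte probe sets the shifts were -0.50, -0.08 and -0.03, and 0 passed, as for the fibroblast list. No probe set passed in the lists for endothelial, smooth muscle and pericyte, lymphocyte, red cell, proliferating, gonadal or sex-linked markers, whose medians ran from -0.14 to 0.38. The smallest p in each unpassed marker list belonged to Actn2 (0.41), Col1a2 (1.01), Tek (-0.24), Myh11 (-0.49), Ms4a1 (-0.25), Hba-a1 (0.18), Birc5 (1.07), Inha (-0.39) and Uty (0.31), given as log2 differences. Their adjusted p ran from 0.0764 for Actn2 to 0.489 for Hba-a1. Actn2 and Tek went against most of their lists, as 12 of 14 cardiomyocyte and 3 of 10 endothelial differences were below 0. The gonadal markers had mean shifts of 0.20, 0.15 and -0.18, and 1 of their 10 probe sets was dim on all arrays. The part of cell composition in the shift of the germline and pluripotency probe sets was not tested.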

How the data were processed

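The authors deposited 1 log2 signal per probe set and array. The values ran from 2.06 to 14.7 with nearly equal array medians, and how they were background-corrected and normalized, and with which software, is not given in the sources used here. The 64 control probe sets were left out, and 45037 were tested as deposited, unfiltered. Probe sets were assigned by the platform annotation (34945 with 1 symbol, 932 with several, 9160 with none), checked by gene identifier against RefSeq. The genotypes were compared by limma (version 3.58.1, R 4.3.3), with lmFit and a variance trend in eBayes, 2-sided, and p was adjusted by Benjamini-Hochberg over all probe sets, with a threshold of 0.05. The limma fit was tested on simulated arrays with differences larger than any of the germline and pluripotency probe sets. Its recovery of smaller differences was not tested.

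Signals are given array by array for the 10 probe sets with the smallest p and those above the array median throughout a group. Those of Syce2, Ddx4 and Asz1 were added after their values were seen. From each of 15 context lists up to 4 probe sets past the threshold are named, otherwise the first by p. The members and lists were chosen with earlier results of these data known. Alternatives were a filter on dim signal, quantile normalization, no variance trend, array weights, the mouse number as a replicate block, 1 probe set per gene, no suffixed probe sets, and leaving out each array. Precision is limited by 3 arrays per group.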

Additional observations from a re-analysis of the deposited data

How the results depend on the processing

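In all 13 alternatives 0 of the germline and pluripotency probe sets passed as higher, and 0 as lower except 1 (Syce2) with array weights. The median difference stayed below 0. It moved beyond the spread between replicates to -0.19 with the filter on dim signal, which kept 10 of the 51, and to -0.10 under quantile normalization. It ran from -0.16 to -0.11 with 1 array left out. The number of all probe sets past the threshold, 952, changed far more. It was 5472 with array weights, a fit in which DNMTs-Tg replicate 5 outweighed the other arrays of its group. With 1 array left out it was 167 (without wild-type replicate 1) to 2429 (without DNMTs-Tg replicate 6). With the mouse number as a replicate block it was 7, with 0 of the 51 among them. Only numbers 1 and 6 occur in both groups, and the deviations of those arrays correlated at -0.03 and -0.07, so the number is not taken as a pairing. Of the 10 probe sets with the smallest p and Tdrd9, the 10 kept their direction in every alternative that tested them. That adds no support, as the 10 were chosen by p on these same arrays. Where the groups do not overlap, leaving out 1 array cannot reverse a difference. Tdrd9 (0.04) turned to -0.046 with the replicate block, -0.035 without DNMTs-Tg replicate 5 and -0.019 without wild-type replicate 6, and was 0.11 without wild-type replicate 1, the highest value with 1 array left out, and 0.12 with array weights. The causes were not tested. Dim signal limits the comparison, since no background level is known for these probe sets.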
